A study of Mus musculus with 6 samples.

Results

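Keratins are the intermediate filament proteins of epithelial cells. The 45 mouse keratin genes described here are those among the 19267 genes of the authors' deposited table whose current symbol is Krt followed by a digit, without keratin-associated proteins and without the pseudogene Krt74. They comprise 19 epidermal, 6 simple and 17 hair keratins and 3 others. RNA was measured on 6 1-colour arrays in cells sorted from transgenic mice with a GFP reporter of smooth muscle actin (SMA-GFP). All cells were negative for CD45, a white blood cell marker, and for CD31, an endothelial marker, and no sort against epithelial cells is described in the labels. Wound cells, which the labels call myofibroblasts, had high SMA-GFP and came from wounds 7 days after injury. Skin cells, labelled fibroblast-like, had low SMA-GFP and came from the dermis, which also holds hair follicles. There were 3 wound and 3 skin arrays. Design 026655 carried replicates 1 and 2 of both groups. The array on design 028005 has no number in the labels and is called replicate 3 as a name only. Strain, age, sex and any pooling of animals are not given in the sources used here, so the p-values describe how far these arrays spread, and that spread may be technical. Reporter level and injury go together in this design and cannot be told apart. Fewer cells of a type and less RNA per cell cannot be told apart in such bulk samples either.

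Keratin filaments are built from pairs of an acidic type I and a basic type II protein. Dividing basal keratinocytes of the epidermis make Krt5 with Krt14, and cells that leave the basal layer make Krt1 with Krt10. Simple epithelia make Krt8 with Krt18. Hair follicles add keratins of the inner root sheath, such as Krt71 with Krt27 and Krt28, and the hard keratins of the hair shaft. Krt6a, Krt6b, Krt16 and Krt17 are known from the epidermis at wound edges, where keratinocytes become activated. Mesenchymal cells are known for vimentin filaments in place of keratins. In the mouse the type I genes lie in a cluster on chromosome 11 and the type II genes in a cluster on chromosome 15, which also holds the type I gene Krt18. Of the 45 genes, 23 are on chromosome 11 and 22 on chromosome 15.

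Spots well above background made up 64.4% to 71.1% of the wound arrays and 65.2% to 72.6% of the skin arrays. Levels below are log2 signals relative to the array's 75th percentile, so 0 is the signal at that percentile. A gene is called measured on an array where its probe was well above background. Many keratin probes read higher on design 028005, so groups were compared within designs. Wound cells had 26.1-fold more signal of Acta2, the gene behind the sort, so this value checks the labels and is no finding (limma log2 difference 4.70, SE 0.16, adjusted p = 5.23e-05). Ptprc, which encodes CD45, was measured on 1 of 3 wound arrays and 3 of 3 skin arrays at levels from -5.48 to -4.43. Pecam1, which encodes CD31, lay between -2.38 and -1.40 on the 6 arrays. All 15 fibroblast markers of a list chosen with earlier results known were measured on every array. Of 16 white blood cell markers 11 to 15 were measured per array, and of 12 endothelial markers 9 to 12.

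The 5′ ends of 4 keratin genes are shown because these genes stand for different keratin classes and for different directions of change. The windows are RefSeq sequence of build GRCm38.p6, 250 bases before to 50 after a transcript start, and 30 of the 45 genes matched an entry, with 31 windows. Capitals mark matches, on either strand, to the TATA motif TATAAA, the AP-1 motif TGANTCA, the AANCCAAA motif known from keratin promoters, the AP-2 motif GCCNNNGGC or the GC box GGGCGG. Krt10 lies at chr11:99389315-99389614, Krt71 at chr15:101743048-101743347 and Krt5 at chr15:101712856-101713155, all on the minus strand, and Krt7 at chr15:101412153-101412452 on the plus strand.
Krt10: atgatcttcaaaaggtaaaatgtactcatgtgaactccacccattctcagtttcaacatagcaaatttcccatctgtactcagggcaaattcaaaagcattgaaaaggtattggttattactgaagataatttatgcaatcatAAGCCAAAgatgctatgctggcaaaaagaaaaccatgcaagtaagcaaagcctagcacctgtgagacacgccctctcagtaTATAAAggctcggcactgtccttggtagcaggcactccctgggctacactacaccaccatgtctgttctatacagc
Krt71: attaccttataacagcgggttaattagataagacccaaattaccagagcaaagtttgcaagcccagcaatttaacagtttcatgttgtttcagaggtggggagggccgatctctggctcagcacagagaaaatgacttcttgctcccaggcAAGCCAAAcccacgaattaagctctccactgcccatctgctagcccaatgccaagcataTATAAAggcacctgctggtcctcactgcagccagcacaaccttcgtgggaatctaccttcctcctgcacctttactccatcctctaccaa
Krt5: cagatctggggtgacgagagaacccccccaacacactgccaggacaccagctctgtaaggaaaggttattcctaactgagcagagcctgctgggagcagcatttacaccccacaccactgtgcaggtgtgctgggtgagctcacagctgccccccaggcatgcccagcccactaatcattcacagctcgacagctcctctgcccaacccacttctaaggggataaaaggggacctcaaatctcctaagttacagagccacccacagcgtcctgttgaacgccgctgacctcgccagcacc
Krt7: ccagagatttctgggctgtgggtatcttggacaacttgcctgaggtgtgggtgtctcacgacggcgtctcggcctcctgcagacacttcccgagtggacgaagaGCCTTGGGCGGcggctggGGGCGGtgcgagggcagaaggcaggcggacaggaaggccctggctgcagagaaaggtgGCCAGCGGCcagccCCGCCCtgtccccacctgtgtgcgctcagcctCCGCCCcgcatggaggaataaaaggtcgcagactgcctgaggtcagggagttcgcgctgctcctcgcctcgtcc
The Krt10 and Krt71 windows each held 1 TATA match and 1 AANCCAAA match. The Krt5 window held none of the motifs. The Krt7 window held 4 GC box and 2 AP-2 matches, and 1 GC box overlaps 1 AP-2 match. TATAAA was found in 14 of the 31 keratin windows and in 13.6% of all 32851 windows. AANCCAAA was in 5 and 5.73%, TGANTCA in 2 and 7.81%, and GCCNNNGGC in 7 and 16.6%. The GC box was in 1 keratin window, that of Krt7, and in 35.7% of all windows. A match is a run of letters and not a known binding site.

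Of the tested keratins, 12 of 15 epidermal and 2 of 4 inner root sheath members were lower in wound cells than in skin cells. Of 6 simple keratins 2 were lower and 1 was higher, and of 3 tested hair shaft keratins none passed by limma (0 at an unadjusted p under 0.05 as well). Of the 45 genes, 39 were measured on at least 1 array, 32 on a wound array and 39 on a skin array. The number measured per array was 25, 19 and 32 on wound replicates 1, 2 and 3, against 33, 28 and 39 on skin replicates 1, 2 and 3. The 6 measured nowhere were Krt33a, Krt34, Krt39, Krt40, Krt87 and Krt90. A test was made for 30 keratins, those measured on all arrays of at least 1 group, with limma across 16743 genes and the array design as a term. At an adjusted p under 0.05, 17 keratins were lower, 1 was higher and 12 did not pass. Among all tested genes 15.6% were lower and 18.5% higher, 34.0% in all. The median log2 difference was -2.07 over the 30 keratins and 0.04 over all tested genes. The summed signal of the 19 epidermal keratins, in multiples of the 75th percentile, was 2.43, 2.28 and 7.39 on wound replicates 1, 2 and 3, against 17.3, 37.8 and 38.2 on skin replicates 1, 2 and 3. That of the 6 simple keratins was 0.289, 0.237 and 1.24 on the wound arrays, against 0.568, 0.572 and 1.90 on the skin arrays. That of the 17 hair keratins was 0.763, 0.769 and 1.64 on the wound arrays, against 1.48, 0.963 and 7.57 on the skin arrays. Every sum was lower in wound cells within each design, and the bright probes of a class set its sum. Genes that entered the test only through the skin arrays were not measured on at least 1 wound array. The entry rule thus favours a fall, and these counts are a description. Of the 17 keratins measured on all 6 arrays, 8 were lower, 0 higher by limma (0 also at an unadjusted p under 0.05) and 9 did not pass, where 13.8% of all genes measured on 6 arrays were lower and 17.7% higher. Probe sequences were not in the files used, so whether a probe reads a related keratin was not checked.

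**Figure D1:**
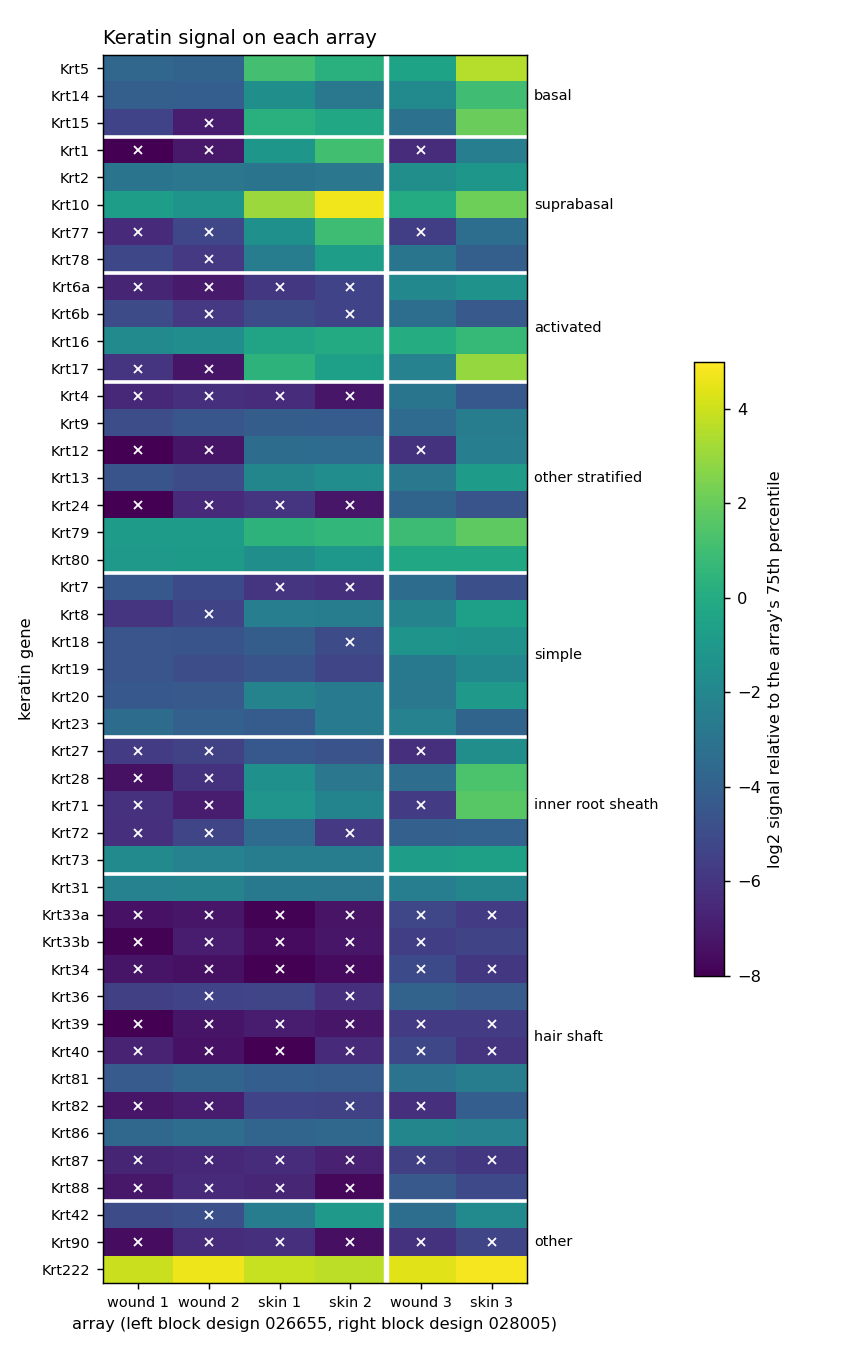
Signal of the 45 keratins on each array, as log2 relative to the array's 75th percentile, with the 4 arrays of design 026655 left and the 2 of design 028005 right, and a cross where the probe was not well above background. The basal row Krt5 reads -3.70 and -3.86 on wound replicates 1 and 2 against 1.13 and 0.25 on skin replicates 1 and 2, while hair shaft rows are mostly crossed.

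All 3 basal keratins fell in wound cells. Krt5, the type II keratin of basal keratinocytes, read -3.70, -3.86 and -0.48 on wound replicates 1, 2 and 3, against 1.13, 0.25 and 3.58 on skin replicates 1, 2 and 3. The groups did not overlap, and wound cells were 20.1-fold lower (log2 -4.33, SE 0.26, adjusted p = 0.000135), with -4.47 on design 026655, -4.06 on 028005 and -3.37 with normexp, a background correction that draws dim signals together. Its type I partner Krt14 read -4.06, -4.13 and -1.84 on the wound arrays, against -1.54, -2.78 and 1.04 on the skin arrays. The arrays were apart within each design, and the fall was 4.75-fold (log2 -2.25, SE 0.36, adjusted p = 0.00468), or -1.51 with normexp. Krt15, a type I keratin of basal cells and of the hair follicle bulge, read -5.40, -7.01 and -3.17 on the wound arrays, against 0.26, -0.26 and 2.02 on the skin arrays. It was not measured on wound replicate 2, and the difference was -5.87 (SE 0.46, adjusted p = 0.000302). With normexp it was -3.39.

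Suprabasal keratins, which mark keratinocytes that have left the basal layer, fell for 3 of 5 members. Krt1 was measured on none of the wound arrays, with readings of -8.08, -7.11 and -6.34, against -1.14, 1.05 and -2.44 on the skin arrays. It was at least 22.8-fold lower in wound cells, where the bound sets the skin mean against the lowest signals that count as measured (adjusted p = 0.00278). The difference as read was -7.55 on design 026655 and -3.90 on 028005. Over all arrays normexp gave -2.74, which is smaller than that bound (4.51 on the log2 scale). The bound thus holds for the main processing only. Its partner Krt10 was measured on every array, at -0.77, -1.28 and -0.02 on the wound arrays, against 3.03, 4.74 and 2.11 on the skin arrays. The groups were apart, with a 15.8-fold fall (log2 -3.99, SE 0.68, adjusted p = 0.0059) that was -4.91 on design 026655 and -2.13 on 028005. Krt77, a type II relative of Krt1, was also measured on no wound array and was at least 16.8-fold lower (adjusted p = 0.0107), with -5.58 and -2.30 as read on designs 026655 and 028005. For Krt77 too, normexp gave a difference smaller than the bound, at -2.20 over all arrays against 4.07 on the log2 scale.

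The remaining suprabasal members did not pass. Krt78 read -5.16, -5.83 and -2.95 on the wound arrays, against -2.48, -0.76 and -4.08 on the skin arrays. Wound arrays were the lower ones on design 026655, by -3.87, and the wound array was the higher one on design 028005, by 1.13. The pooled difference was -2.20 (SE 1.04, adjusted p = 0.156), and design 026655 alone gave an adjusted p = 0.00632. Krt2, a late differentiation keratin, was measured on all arrays and overlapped between the groups (log2 -0.15, SE 0.17, adjusted p = 0.528). Its second probe was measured on wound replicate 3 only, and the mean of both probes gave 0.44 (adjusted p = 0.343).

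Of 4 keratins of activated epidermis, Krt16 and Krt17 were tested and both fell in wound cells. Krt17 read -6.04, -7.27 and -2.25 on the wound arrays, the first and second not measured, against 0.41, -0.65 and 2.93 on the skin arrays. The groups did not overlap, and the log2 difference was -6.08 (SE 0.47, adjusted p = 0.000304), -6.53 on design 026655 and -5.19 on 028005, or -3.66 with normexp. Krt16, the type I keratin induced with Krt6a and Krt6b at wound edges, read -1.79, -1.65 and 0.04 on the wound arrays, against -0.41, -0.05 and 0.71 on the skin arrays. It was 2.33-fold lower (log2 -1.22, SE 0.22, adjusted p = 0.00797), with -1.49 on design 026655 and -0.67 on 028005. Without the term for the array design its adjusted p = 0.295. Krt6a was measured on design 028005 only, at -1.93 on the wound array and -1.35 on the skin array. Krt6b was measured on 2 wound and 2 skin arrays, at -4.97 and -3.30 in wound cells and -5.05 and -4.35 in skin cells. Neither Krt6a nor Krt6b met the rule for testing.

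**Figure D2:**
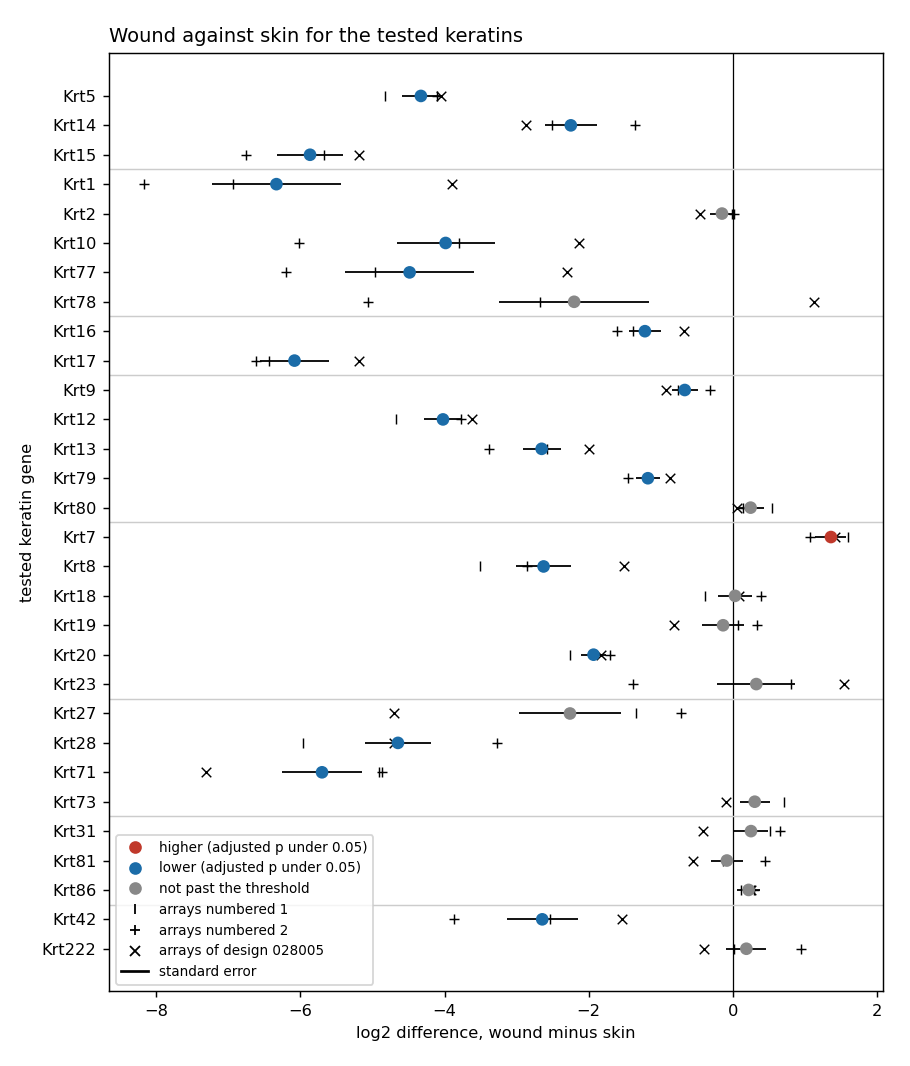
Log2 difference, wound minus skin, for the 30 tested keratins, with the model's standard error as a bar and the difference between arrays of the same number or design as small marks. Of the 30, 17 lie below 0 as called lower, Krt7 is called higher at 1.36, and the small marks of Krt78 run from -5.06 to 1.13.

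Of 7 other keratins of stratified epithelia, 5 were tested and 4 fell. Krt12, known from the cornea, was measured on no wound array and read -3.40, -3.47 and -2.45 on the skin arrays. It was at least 4.73-fold lower in wound cells (adjusted p = 0.000168), while normexp gave a log2 difference of -0.96, which is smaller than that bound. A second Krt12 probe was measured on skin replicate 3 only, at -4.11, and the mean of both probes gave -2.48. Krt13, a type I keratin of mucosal epithelia, read -4.61, -5.02 and -2.80 on the wound arrays, against -2.04, -1.63 and -0.80 on the skin arrays. That is a 6.29-fold fall without overlap (log2 -2.65, SE 0.26, adjusted p = 0.000719), which rests on 1 probe, since a second probe was measured on 1 wound and 2 skin arrays and the mean of both gave -1.16 (adjusted p = 0.0861). Normexp gave -1.52.

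Krt79, a type II keratin of the hair canal and sebaceous duct, was among the brighter keratins of its group. It read -0.82, -0.85 and 0.91 on the wound arrays, against 0.39, 0.61 and 1.79 on the skin arrays. It was 2.27-fold lower (log2 -1.18, SE 0.17, adjusted p = 0.00292), with -1.33 and -0.87 on designs 026655 and 028005, and did not pass without the design term (adjusted p = 0.329). Krt9, known from palm and sole skin, was 1.59-fold lower (log2 -0.67, SE 0.18, adjusted p = 0.0332), a call that ended under several alternatives, among them normexp (adjusted p = 0.178) and design 026655 alone (adjusted p = 0.135). Krt80, a type II keratin found in many epithelia, was measured on all arrays and did not pass (log2 0.24, SE 0.18, adjusted p = 0.339). Krt4, a mucosal keratin, and Krt24 were measured on the 2 arrays of design 028005 only. There Krt4 read -2.95 in wound cells and -4.42 in skin cells, and Krt24 read -3.79 and -4.62.

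Simple keratins did not move together. Krt7, a type II keratin of ducts and glands, was the 1 keratin that rose. It was measured on all 3 wound arrays, at -4.40, -5.10 and -3.41, and on 1 of 3 skin arrays, where it read -5.99, -6.17 and -4.82. The wound arrays were the higher ones within each design, by 1.33 on design 026655 and 1.41 on 028005, and the log2 difference was 1.36 (SE 0.21, adjusted p = 0.00433). Krt7 lay close to background, and with normexp the difference was 0.39 (adjusted p = 0.0572). Without the array design term its adjusted p = 0.197.

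Krt8 and Krt18, which form the filaments of simple epithelia together, differed from each other. Krt8 read -5.98, -5.34 and -2.18 on the wound arrays, against -2.46, -2.47 and -0.67 on the skin arrays. It was lower by its brighter probe (log2 -2.63, SE 0.38, adjusted p = 0.00291), with -3.19 on design 026655 and -1.50 on 028005. That probe was not measured on wound replicate 2, and normexp gave -1.23. Its second probe read -6.55, -7.06 and -3.39 on the wound arrays and -6.58, -7.24 and -5.30 on the skin arrays, and the mean of both gave -0.96 (adjusted p = 0.0884). Krt18 read -4.56, -4.64 and -1.25 on the wound arrays, against -4.18, -5.03 and -1.34 on the skin arrays. Its groups overlapped on design 026655 (log2 0.03, SE 0.24, adjusted p = 0.937), with a 75th percentile over detected probes giving -0.06. The difference between the Krt8 and Krt18 differences was not tested.

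Krt19, made by ducts, glands and hair follicle cells, was measured on all arrays and did not pass (log2 -0.14, SE 0.29, adjusted p = 0.75), with 0.20 on design 026655 and -0.81 on 028005. Krt20, a type I keratin of gut epithelium and of Merkel cells, read -4.44, -4.35 and -2.80 on the wound arrays, against -2.18, -2.64 and -0.98 on the skin arrays. The groups did not overlap, and the fall was 3.82-fold (log2 -1.93, SE 0.18, adjusted p = 0.000511), or -1.07 on the log2 scale with normexp. Krt23 varied more within groups than between them. It read -3.40, -4.02 and -2.25 on the wound arrays, against -4.21, -2.64 and -3.80 on the skin arrays (log2 0.32, SE 0.54, adjusted p = 0.68).

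Inner root sheath keratins differed among themselves, with 2 of 4 tested members lower in wound cells. Krt71, a type II keratin of all layers of the sheath, was measured on no wound array and read -1.24, -2.13 and 1.62 on the skin arrays. It was at least 27.3-fold lower in wound cells (adjusted p = 0.000658), with -4.89 on design 026655 and -7.31 on 028005 as read. Over all arrays normexp gave -2.82, which is smaller than that bound (4.77 on the log2 scale). Krt28 read -7.43, -6.11 and -3.36 on the wound arrays, of which the last was measured, against -1.47, -2.83 and 1.34 on the skin arrays. Its difference was -4.65 (SE 0.46, adjusted p = 0.000698), with -4.62 and -4.70 on designs 026655 and 028005 and -2.30 with normexp, and a second Krt28 probe pointed the same way (-3.67 by the mean of both).

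Krt27, the neighbour of Krt28 in sheath and cluster, was measured on no wound array and was dim on skin replicates 1 and 2, at -4.42 and -4.69, but read -1.55 on skin replicate 3. It did not pass (log2 -2.26, SE 0.71, adjusted p = 0.0529), and stood at -1.04 on design 026655 alone, where it passed (adjusted p = 0.0229), and at -4.71 on 028005. Krt73, of the sheath cuticle, was measured on all arrays and did not pass (log2 0.30, SE 0.21, adjusted p = 0.306). Krt72, the other cuticle keratin, was not tested, with -3.48 on skin replicate 1 and -5.82, not measured, on skin replicate 2.

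Hair shaft keratins, the hard keratins of the cortex and cuticle, gave no call among 3 tested members by limma (0 at an unadjusted p under 0.05 as well). Krt31, Krt81 and Krt86 had log2 differences of 0.25, -0.08 and 0.22 (SE 0.23, 0.23 and 0.16; adjusted p = 0.447, 0.803 and 0.329), and each was measured on all 6 arrays between -4.28 and -2.01. Of the 9 untested members, Krt33a, Krt34, Krt39, Krt40 and Krt87 were measured nowhere. Krt33b was measured on skin replicate 3 only, at -5.32. Krt82, a cuticle keratin, was measured on 2 skin arrays, with readings of -5.36, -5.44 and -4.13 on skin replicates 1, 2 and 3 and of -7.20, -6.94 and -6.20 on the wound arrays. Krt36 was measured on 2 arrays of each group and Krt88 on 1 of each.

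Outside these classes, Krt42, a type I keratin known from mouse nail, read -5.04, -4.84 and -3.31 on the wound arrays, against -2.50, -0.97 and -1.77 on the skin arrays. It was lower (log2 -2.65, SE 0.49, adjusted p = 0.0085), with -1.30 by the mean of its probes and -1.36 with normexp, and was not measured on wound replicate 2. Krt222, a keratin-related gene, was bright on every array, at 3.94, 4.65 and 4.41 in wound cells and 3.92, 3.70 and 4.81 in skin cells. It did not pass (log2 0.19, SE 0.28, adjusted p = 0.641), and its second probe lay at -6.50 or lower throughout. The brightness of Krt222 thus belongs to 1 of its probes.

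The skin arrays differed among themselves by keratin role. On design 026655, skin replicate 2 read above skin replicate 1 for all 5 suprabasal keratins, by 2.20 for Krt1, 1.71 for Krt10, 2.43 for Krt77, 1.72 for Krt78 and 0.13 for Krt2. It read below skin replicate 1 for all 3 basal keratins, by -0.88 for Krt5, -1.23 for Krt14 and -0.52 for Krt15, and for the 4 inner root sheath keratins measured on all skin arrays, by -1.36 for Krt28 and -0.90 for Krt71 at the far end. These are single arrays of each replicate, so there is no test. Over all 16743 tested genes the difference had a median of -0.02, and the central 95% of genes lay between -0.91 and 0.85. Krt17 went with the basal members at -1.06, while Krt42 and Krt23 went with the suprabasal ones at 1.53 and 1.57. On design 028005, whose skin array cannot be set against the others level by level, the wound minus skin difference was widest for Krt71 at -7.31 and smaller for Krt1 at -3.90, where design 026655 had -4.89 for Krt71 and -7.55 for Krt1. As read, the fall of Krt1, Krt10 and Krt77 was largest on the arrays numbered 2, at -8.17, -6.02 and -6.19, and smallest on design 028005. Krt1, Krt71 and Krt77 were measured on no wound array, so the sizes of their differences are not measured. The lowest signal that counted as measured was -6.08, -5.30 and -4.67 on wound replicates 1, 2 and 3, which differs between arrays.

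**Figure D3:**
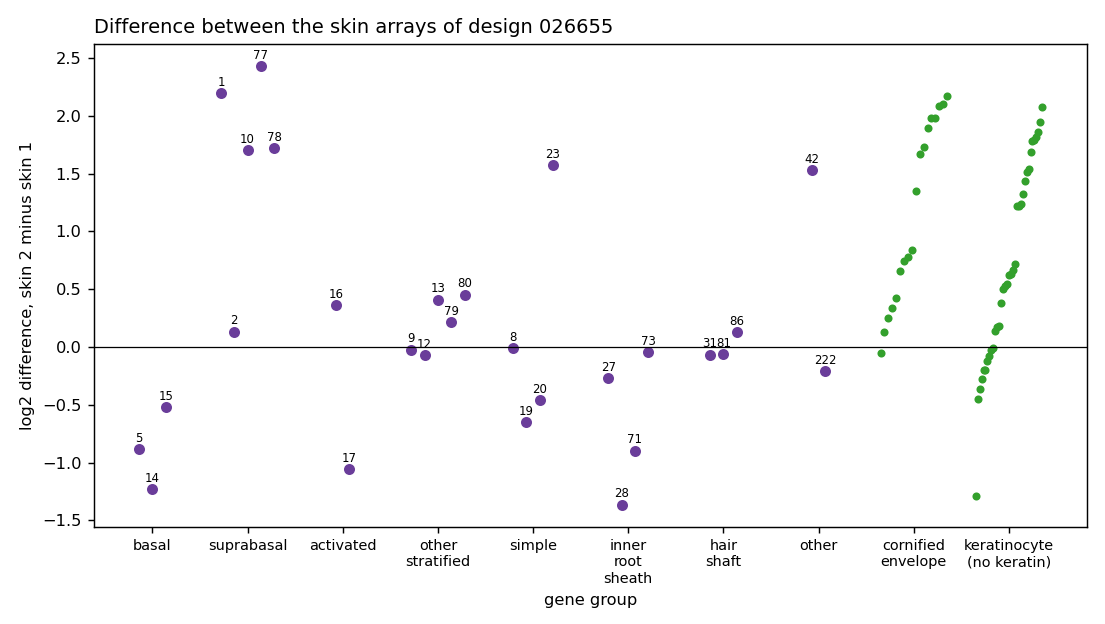
Log2 difference between skin replicate 2 and skin replicate 1 on design 026655, for keratins measured on all skin arrays (by role, with the number of the keratin beside its point) and for tested genes of lists without keratins. Suprabasal keratins lie between 0.13 and 2.43 and basal keratins between -1.23 and -0.52.

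Of 35 tested keratinocyte markers that are not keratins, 21 were lower in wound cells, 3 higher and 11 did not pass, with a median of -1.49. Over all tested genes 15.6% were lower and 18.5% higher. Many members, among them Serpinb5, Dsp and Cdh1, entered the test only through the skin arrays, so the count is a description. Serpinb5, a serpin of epithelial cells, was at least 54.4-fold lower (adjusted p = 0.000673), and Perp, a desmosome protein, fell 78.7-fold (adjusted p = 0.000895). Dsp, the desmoplakin that anchors keratin filaments, fell as well (adjusted p = 0.00187), with 1 of 3 wound arrays measured, so its fold is not given. Of the defining markers, E-cadherin (Cdh1) was measured on no wound array and was at least 10.4-fold lower (adjusted p = 0.00184), Epcam was measured on 1 wound array and fell (log2 -1.87, SE 0.38, adjusted p = 0.0118), and the transcription factor Trp63 was measured on all arrays and did not pass (log2 -0.27, SE 0.22, adjusted p = 0.374). Cdh1, Epcam and Trp63 were chosen for their role after their values were seen. Among the members that rose were P-cadherin (Cdh3, 7.30-fold) and the integrin Itga6 (1.57-fold), whose call ended under several alternatives, quantile normalization among them. The summed signal of the list was 27.3, 28.9 and 61.6 on wound replicates 1, 2 and 3. It was 31.8, 55.3 and 61.7 on skin replicates 1, 2 and 3. The wound sums were thus the lower ones on design 026655, and the sums were nearly equal on design 028005. The part of these markers in the keratin differences was not tested.

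Cornified envelope genes, which encode the outer layer of dead keratinocytes, fell for 7 of 18 tested members. By limma 0 were higher (0 at an unadjusted p under 0.05 as well) and 11 did not pass. Over all tested genes 15.6% were lower and 18.5% higher. Of the lower members, Krtdap, Calm4, Calml3, Cdsn and Klk5 entered the test only through the skin arrays, so the count is a description. Calm4 was at least 46.1-fold lower (adjusted p = 0.00159), and Dmkn fell 17.8-fold (adjusted p = 0.0125). Krtdap fell too (adjusted p = 0.00339) but was measured on 1 of 3 wound arrays. Skin replicate 2 read above skin replicate 1 for 17 of the 18, with a median of 1.09, and for 25 of the 35 keratinocyte markers, with a median of 0.63. Suprabasal keratins and these genes were thus high on the same skin array. The summed signal of the cornified list was 4.08, 3.56 and 9.11 on wound replicates 1, 2 and 3. It was 9.59, 29.5 and 7.82 on skin replicates 1, 2 and 3. The wound sums were thus the lower ones on design 026655, and the wound sum was the higher one on design 028005. Of 14 tested hair follicle genes that are not keratins, 7 fell, 1 rose and 6 did not pass, set against the same shares over all tested genes. Of those that fell, Lgr6, Crym and Lhx2 entered the test only through the skin arrays. Lgr6, a stem cell receptor, was at least 43.3-fold lower (adjusted p = 0.000634), Lef1 fell 26.6-fold (adjusted p = 0.000312) and Krtap11-1, a keratin-associated protein of the hair shaft, 12.6-fold (adjusted p = 0.00017). Sox9, also made by mesenchymal cells, rose 6.51-fold (adjusted p = 0.000289). Which cells made the genes of this list, those that fell as well as Sox9, was not tested.

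**Figure D4:**
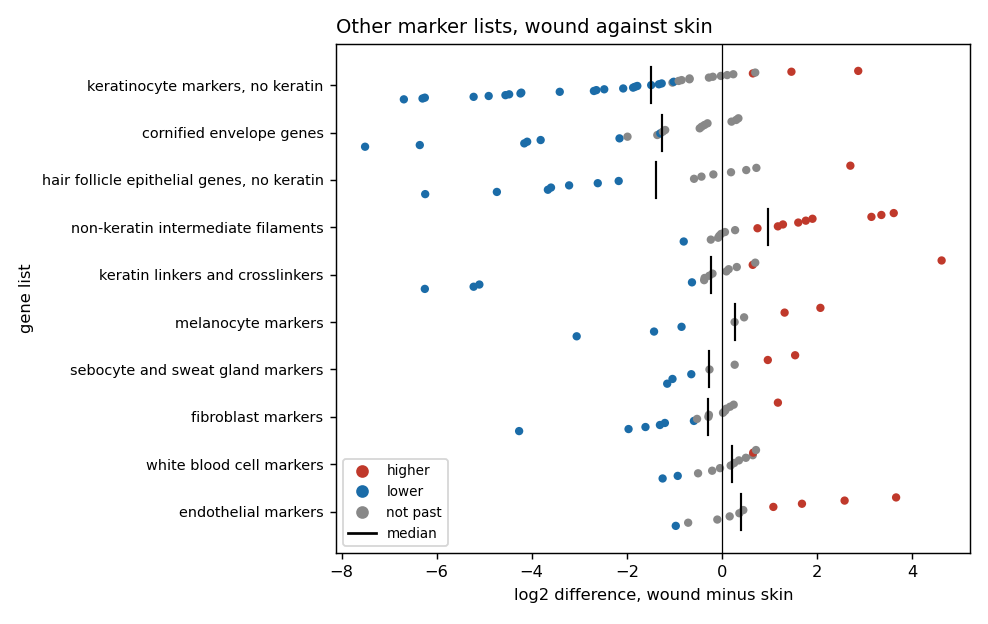
Log2 difference, wound minus skin, of every tested gene in 10 lists that hold no keratins, coloured by call, with a line at each list's median. The 3 epithelial lists at the top have medians of -1.49, -1.27 and -1.38, and the intermediate filament list has a median of 0.96.

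Of 16 tested intermediate filament genes that are not keratins, 9 were higher in wound cells, 1 lower and 6 did not pass, with a median of 0.96. Over all tested genes 18.5% were higher and 15.6% lower. Nefl and Nefm entered the test only through the wound arrays, so the count is a description. Desmin (Des), of muscle cells, rose 10.2-fold (log2 3.36, SE 0.18, adjusted p = 0.000113) and nestin (Nes) 8.85-fold (log2 3.15, SE 0.15, adjusted p = 8.85e-05). Nefl, a neurofilament subunit measured on no skin array, was at least 3.47-fold higher (adjusted p = 0.000696). Iffo1 was the lower one (log2 -0.80, SE 0.17, adjusted p = 0.0129). Vimentin (Vim), chosen after its value was seen, did not pass (log2 -0.05, SE 0.15, adjusted p = 0.805). Of 14 tested genes that link or order keratin filaments, 4 fell and 2 rose, set against the same shares over all tested genes. Dsp and Pkp1 entered this test only through the skin arrays and Pkp2 only through the wound arrays. Periplakin (Ppl) fell 34.4-fold (adjusted p = 5.47e-05). Pkp1, a desmosome protein measured on 1 of 3 wound arrays, fell (adjusted p = 0.00362). Its relative Pkp2, measured on 2 of 3 skin arrays, rose (log2 4.62, SE 0.26, adjusted p = 0.000118).

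Markers of other cell types are given beside the shares over all tested genes, 15.6% lower and 18.5% higher. Of 7 tested melanocyte markers 3 fell and 2 rose, with Mlana 8.31-fold lower (adjusted p = 0.00077). The summed signal of the list was 3.75, 3.34 and 7.85 on wound replicates 1, 2 and 3. It was 8.16, 5.98 and 18.1 on skin replicates 1, 2 and 3, so lower in wound cells within each design. Most of that sum came from 1 gene, Mitf, which fell (log2 -1.43, SE 0.18, adjusted p = 0.00186). Kit and Ednrb rose, and the median difference of the tested melanocyte markers was 0.27. Of 7 sebocyte and sweat gland markers 3 fell and 2 rose, of 15 fibroblast markers 6 fell and 1 rose, of 12 white blood cell markers 2 fell and 1 rose, and of 10 endothelial markers 1 fell and 4 rose. The summed signal of the white blood cell list was 25.4, 34.1 and 117 on wound replicates 1, 2 and 3. It was 28.3, 25.5 and 131 on skin replicates 1, 2 and 3, and the groups overlapped on design 026655. That of the endothelial list was 9.16, 8.80 and 22.2 on the wound arrays, against 4.62, 4.43 and 18.7 on the skin arrays. The endothelial sum was thus higher in wound cells within each design, while 5 of the 10 tested members did not pass. On design 028005 Esam, 1 of the 4 that rose, read 2.76 in wound cells and -0.88 in skin cells. Kdr, the brightest member there, did not pass and read 3.43 in wound cells and 3.84 in skin cells. The sum was not taken without Esam, so its direction on design 028005 need not hold for the list as a whole. With no array design term limma called 0 sebocyte and 0 white blood cell markers, with 1 of each list at an unadjusted p under 0.05. On design 026655 alone the white blood cell list had 1 higher and 0 lower, with 3 higher and 2 lower at an unadjusted p under 0.05. With the replicate block 2 sebocyte markers were lower and 2 higher, and 3 melanocyte markers were lower and 1 higher. Of the white blood cell list 2 were then lower and 0 higher by limma, with 2 higher at an unadjusted p under 0.05. The part of these lists in the keratin differences was not tested.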

How the data were processed

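Spot intensities were extracted by the authors with Agilent Feature Extraction 10.7.3.1 on designs of genome build mm9, per the file headers. The deposited gene table was made in GeneSpring 14.5, per the series' design text, which names a human array although the organism label is mouse. Neither the labels nor the table state the scale of the deposited gene values. Differences between same-numbered arrays in the authors' table followed log2 differences of the mean of all probes with slopes of 1.00, 1.00 and 0.976 and correlations of 1.000, 1.000 and 0.975 across 16544 genes, so scale and direction were taken as log2, wound over skin as labelled. Its values are centred per gene within each design. The columns' medians are -0.28, -0.27 and -0.23 for wound replicates 1, 2 and 3 and -0.21, -0.25 and -0.25 for skin replicates 1, 2 and 3. The sources used here do not say how probes were combined.

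The members and lists were chosen with earlier results of these data known. Probes were named by the gene identifiers of the authors' table (27773 probes on each design), otherwise by RefSeq accession (4208 and 4209 probes on designs 026655 and 028005), through names of assembly GRCm38.p6, which held 18040 of 19267 identifiers. Control and outlier-marked spots were left out, spots of a probe averaged, and the log2 of the processed signal taken minus the array's 75th percentile. The brightest probe of a gene on each design was used, the same one on both for 44 of 45 keratins. Genes measured on all arrays of a group were tested with limma 3.58.1 in R 4.3.3 (lmFit, eBayes) with the array design, which is also the slide, as a fixed term, and Benjamini-Hochberg adjustment over 16743 genes. The model had 3 residual degrees of freedom, 6.25 after moderation, and was tested on simulated data. Every tested keratin is named, and of each other list up to 3 called genes in each direction, apart from any not reported here. The planned mean spot signal was replaced by the median signal for normexp, since the files hold that column. Tables and plots used Python 3.11.15, pandas 2.3.3 and matplotlib 3.10.9. The number of arrays limits the precision.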

Additional observations from a re-analysis of the deposited data

How the results depend on the processing

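The count of 17 lower keratins stayed between 15 and 18 under the alternatives except with detection required on all 6 arrays, where 8 were lower among 17 tested, because genes dim in wound cells are then not tested. All 17 were lower again under 5 alternatives. With detection on all 6 arrays 8 of the 17 were tested and these 8 were lower. Under the remaining alternatives 14 to 16 of the 17 were lower. The 1 higher keratin, Krt7, gave counts of 0 with normexp, with detection on all 6 arrays and with no array design term, where limma had 1, 0 and 1 higher at an unadjusted p under 0.05. Leaving out 1 array at a time gave 16 to 18 lower keratins, 1 higher keratin each time, and 3760 to 5030 called genes against 5699, the lowest without skin replicate 1. With no array design term 1768 genes were called. Signs changed among keratins that did not pass. Krt18 was -0.064 with the 75th percentile over detected probes and -0.030 by the authors' deposited values, and Krt222 was -0.045 by those values. Krt2 was 0.44 with the mean of all probes. Design 026655 alone gave 0.0017 for Krt2, 0.20 for Krt19, -0.29 for Krt23 and 0.15 for Krt81. Leaving out 1 array at a time gave -0.24 to 0.0017 for Krt2, -0.21 to 0.28 for Krt18, -0.42 to 0.20 for Krt19, -0.29 to 0.95 for Krt23, -0.30 to 0.15 for Krt81 and -0.10 to 0.48 for Krt222. The cause of these changes was not tested. Normexp brought the differences of Krt1, Krt77, Krt12, Krt28 and Krt71 to -2.74, -2.20, -0.96, -2.30 and -2.82. For Krt1, Krt77, Krt12 and Krt71 these are smaller than the bounds given, so those bounds hold for the main processing only. Bounds of genes in the other lists were not set against normexp. The labels give only replicates 1 and 2 of design 026655 a number. Deviations of wound and skin replicate 1 from their group means correlated at 0.15 over genes, too few pairs to show pairing, and a replicate block gave 17 lower and 1 higher keratin and 5607 called genes. Dim probes limit what wound cells can show, since a reading not well above background is only a bound.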

Other observations

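Of 8 further mouse keratin genes that have no row in the authors' table, 7 had a probe on both designs. Krt25, a type I keratin of the inner root sheath and so a partner of Krt71, was measured on no wound array and on all 3 skin arrays, between -3.31 and 0.25, and limma gave a log2 difference of -5.20 (SE 0.59, adjusted p = 0.00113) whose size is not measured, since the wound readings were not well above background. Krt75, of the companion layer of the follicle, was measured on 2 skin arrays and on no wound array. Krt35, a hair shaft keratin, was measured on skin replicate 3 only, at -1.94. Krt26, Krt32, Krt76 and Krt84 were measured on no array.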
